A study of Zea mays with 4 samples.

Results

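Lipoxygenases and 12-oxo-phytodienoic acid (OPDA) reductases were followed on 4 Affymetrix maize arrays, each hybridised with biotin-labelled total RNA of 1 sample. Members were all probe sets whose gene symbol or synonym was lox or opr followed by a number, which gave 10 of 17621 probe sets for 7 genes. There were 3 lipoxygenase probe sets for 2 genes, lox1 and lox3, and 7 reductase probe sets for 5 genes, opr1, opr3, opr5, opr7 and opr8. The RefSeq annotation of the B73 genome holds 12 lipoxygenase and 8 reductase genes under such names, so 2 of 12 and 5 of 8 were measured by a named probe set.

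The samples came from 2 inbred maize lines, Cm489 and F98902, with 2 samples each. Both lines were untreated as far as the labels say. They were grown in potting soil with a 16/8 light cycle plus natural light, aerial material was taken, and the stage was given as flower development. The organ is not named. The titles give every sample a different code after the line name, with no explanation, and no label states that the samples of 1 line are separate plants. Both Cm489 samples carry the same extraction note, which names replicate 2. The p-values therefore measure the spread between these samples alone, which may be technical. The series concerns the diversity of the maize cell wall, and the comparison asked which genes differed between the lines.

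Plants make oxylipins from polyunsaturated fatty acids. A lipoxygenase adds oxygen to linolenic or linoleic acid at carbon 9 or carbon 13. The 13-hydroperoxides feed allene oxide synthase and allene oxide cyclase, which make OPDA, and a peroxisomal OPDA reductase of type II reduces it on the way to jasmonic acid. Jasmonic acid drives wound and herbivore responses, and in maize it is needed for male tassel flowers. The 9-hydroperoxides feed a separate branch, linked in maize to interactions with fungi and nematodes.

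Values are the authors' GCRMA signals on a scale taken as log2, so a difference of 1 is a doubling. GCRMA subtracts an estimate of non-specific binding, brings the arrays to a common distribution and gives 1 value for the probes that target a transcript. Probe sets with no specific signal end up at a floor near 2, and a value under 4 gives no level here. Levels of different probe sets are not compared, because probes differ in brightness. A probe set was tested when it reached 4 on at least 2 arrays, which 8 of the 10 members did, covering all 7 genes. The median over all probe sets of an array ran from 7.002 to 7.119, so no array was shifted as a whole in the deposited values. This follows from the common distribution and does not show how the arrays compared before it. The number of arrays limits the precision.

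The labelled aerial tissue was checked against marker genes. Of 7 leaf and green tissue markers 6 were measured above the minimum on at least 2 arrays, and all 5 stem secondary wall markers were. Of 10 kernel markers 6 lay under 4 on all arrays, as did 3 of 4 pollen markers and the 1 root marker. However, 3 kernel markers and 1 pollen marker, TUA1, reached the minimum on at least 2 arrays. The log2 of the summed signal of the kernel markers ran from 12.47 to 12.86 over the 4 arrays, a sum set mostly by the brightest markers. Their median log2 value ran from 2.34 to 2.40. That list was thus mostly near the floor but not wholly absent. The green and wall markers differed between samples of a line. The log2 of the summed signal of the green markers was 11.43 in Cm489 replicate 1 and 14.63 in replicate 2, and 15.24 in F98902 replicate 1 and 12.52 in replicate 2. For the wall markers it was 12.84, 15.89, 15.46 and 13.19 in the same order. Cm489 replicate 2 and F98902 replicate 1 were thus high for both lists.

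In the comparison of the lines all 8 tested members had a lower mean in F98902, against 51.2% of all tested probe sets. None passed the test (limma, Benjamini-Hochberg adjusted p under 0.05), where 1.78% of all 11242 tested probe sets did, 0.934% higher and 0.845% lower in F98902. Only opr7 had an unadjusted p under 0.05, which makes 1 member, against 10.5% of all tested probe sets. This count was 6 when F98902 replicate 2 was left out (11.8% of all), 2 without F98902 replicate 1 (6.97% of all) and 1 when either Cm489 array was left out. The count of 8 was 5 without F98902 replicate 1 (48.4% of all tested probe sets), and 7 when F98902 replicate 2 was the array left out (53.0%). In 5 of the 8, with a share of 8.10% over all tested probe sets, F98902 replicate 1 was the lowest array by at least 1. The 8 include 2 probe sets of lox1 that target the same sequence, so they are not 8 separate measurements.

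**Figure D1:**
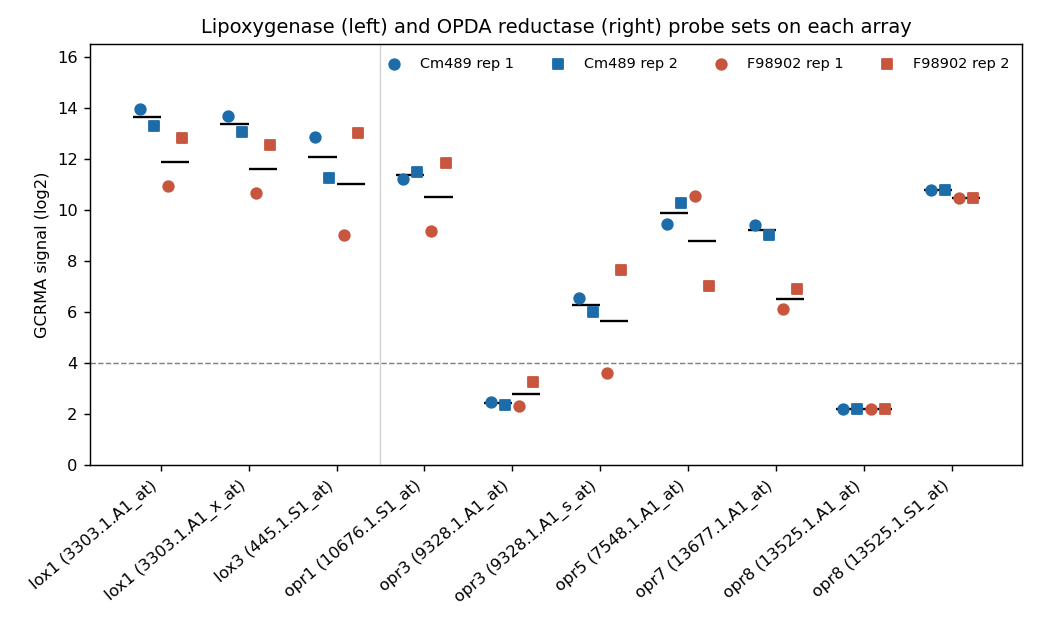
GCRMA signal (log2, y axis) of the 10 probe sets (x axis) on the 4 arrays. Blue points are Cm489, red points F98902, circles replicate 1 and squares replicate 2; short black lines are the means of 2 arrays, and the dashed line is the minimum of 4. F98902 replicate 1 lies under the other arrays in lox1, lox3, opr1, opr3 and opr7, opr5 has its lowest value in F98902 replicate 2, and opr8 is nearly level.

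All 3 lipoxygenase probe sets lay above the minimum on each of the 4 arrays. The gene lox1 (Entrez gene 541856) encodes an enzyme reported to oxygenate at either position. Its probe set Zm.3303.1.A1_at read 13.94 and 13.30 in Cm489 and 10.95 and 12.83 in F98902. Both F98902 arrays lay under both Cm489 arrays, by 0.47 at the closest, while the F98902 arrays themselves differed by 1.88. The means were 13.62 ± 0.45 and 11.89 ± 1.33 (SD, n = 2 per line). The difference was -1.73 (SE 0.80, 95% interval -3.94 to 0.48, limma adjusted p = 0.627), or a signal 3.32-fold higher in Cm489. Leaving out F98902 replicate 1 gave -0.79, and leaving out F98902 replicate 2 gave -2.67.

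The other lox1 probe set, Zm.3303.1.A1_x_at, read 13.66 and 13.06 in Cm489 and 10.67 and 12.56 in F98902. The suffix _x_at marks a probe set in which some probes also match other sequences. The difference between the lines was -1.75 (SE 0.80, limma adjusted p = 0.618). On the 4 arrays it lay 0.24 to 0.28 under the first probe set, so both gave the same profile. In RefSeq lox1 lies next to lox2 with no protein-coding gene between them, and signal from lox2 RNA on these probes cannot be told apart from that of lox1.

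The gene lox3 (Entrez gene 542495) encodes a 9-lipoxygenase whose loss in maize is known to change resistance to fungi and nematodes. Zm.445.1.S1_at read 12.85 and 11.26 in Cm489 and 9.01 and 13.03 in F98902. The lines overlapped fully, with F98902 holding both the lowest and the highest array. The means were 12.06 ± 1.13 and 11.02 ± 2.84, and the difference of -1.04 (SE 1.57, limma adjusted p = 0.921) had an interval from -5.38 to 3.31. Its direction turned to 0.97 without F98902 replicate 1, and it was -3.05 with F98902 replicate 2 omitted. The gap of 4.02 between the F98902 arrays was matched or passed by 3.19% of all tested probe sets. The lox3 gene lies next to lox4 in RefSeq, with no protein-coding gene between them.

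Among the reductases opr7 and opr8 are the type II members. They are known to act redundantly in jasmonic acid synthesis, and maize lacking both has feminised tassels. The gene opr7 (Entrez gene 732830) gave the widest separation of the lines among the members. Zm.13677.1.A1_at read 9.43 and 9.02 in Cm489 and 6.12 and 6.88 in F98902. All F98902 values were lower, with a gap of 2.14 between the nearest arrays of the lines. The means were 9.23 ± 0.28 and 6.50 ± 0.54, a signal 6.599-fold higher in Cm489.

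The opr7 difference was -2.72 (SE 0.49, 95% interval -4.09 to -1.36), with an unadjusted p of 0.00509 and an adjusted p of 0.151 in the limma fit, so it did not pass. A difference at least as large in either direction was found for 6.63% of all tested probe sets. With 1 array left out it lay between -3.10 (F98902 replicate 2 omitted) and -2.34 (F98902 replicate 1 omitted), so each such fit kept the direction. Over all alternatives its limma adjusted p ran from 0.0719 to 0.724. Less RNA and poorer matching of the probes to the sequence of a line cannot be told apart, for opr7 or any other probe set with both F98902 arrays lower. In lox3, opr1 and opr3 F98902 replicate 2 was the highest array, and the part of probe matching there was not tested.

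For opr8 (Entrez gene 732734) the probe set Zm.13525.1.S1_at read 10.76 and 10.79 in Cm489 and 10.48 and 10.47 in F98902. The samples of a line were within 0.03 of each other, and the range over the 4 arrays was 0.32. A range at least that wide was seen in 96.3% of tested probe sets, which makes opr8 the steadiest member. The lines did not overlap, but the difference was -0.30 (SE 0.39, 95% interval -1.38 to 0.78, limma adjusted p = 0.906). The moderated SE is wider than the spread of these 4 values because variances are shared over probe sets. The other opr8 probe set, Zm.13525.1.A1_at, was at the floor on every array (2.18 to 2.22) and gives no level.

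The type I reductases opr1, opr3 and opr5 belong to the group that has no established part in jasmonic acid synthesis. The gene opr1 (Entrez gene 732815), Zm.10676.1.S1_at, read 11.22 and 11.49 in Cm489 and 9.17 and 11.84 in F98902. The Cm489 arrays lay between the F98902 arrays. The difference was -0.85 (SE 1.02, 95% interval -3.68 to 1.97, limma adjusted p = 0.894), and it turned to 0.48 without F98902 replicate 1. In RefSeq 1 protein-coding gene lies between opr1 and opr2, and signal from opr2 RNA cannot be told apart here.

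The gene opr3 (Entrez gene 732731) is not the maize counterpart of Arabidopsis OPR3, the jasmonate enzyme of that species, in spite of the shared name. Zm.9328.1.A1_s_at read 6.53 and 5.99 in Cm489 and 3.61, under the minimum, and 7.66 in F98902. F98902 again held both extremes. The difference was -0.63 (SE 1.49, 95% interval -4.74 to 3.49, limma adjusted p = 0.959), with the value of 3.61 used as it stands. It was -0.43 with values under 4 raised to 4, and it turned to 1.40 without F98902 replicate 1. The suffix _s_at marks probes shared by several transcripts. The probe set Zm.9328.1.A1_at of the same gene was under the minimum on all arrays, from 2.33 to 3.26.

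The gene opr5 (Entrez gene 732829) ran the other way within F98902. Zm.7548.1.A1_at read 9.45 and 10.29 in Cm489 and 10.54 and 7.02 in F98902. F98902 replicate 1 was the highest and F98902 replicate 2 the lowest of the 4 arrays. The difference was -1.09 (SE 1.33, 95% interval -4.76 to 2.59, limma adjusted p = 0.895), and it turned to 0.67 without F98902 replicate 2.

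**Figure D2:**
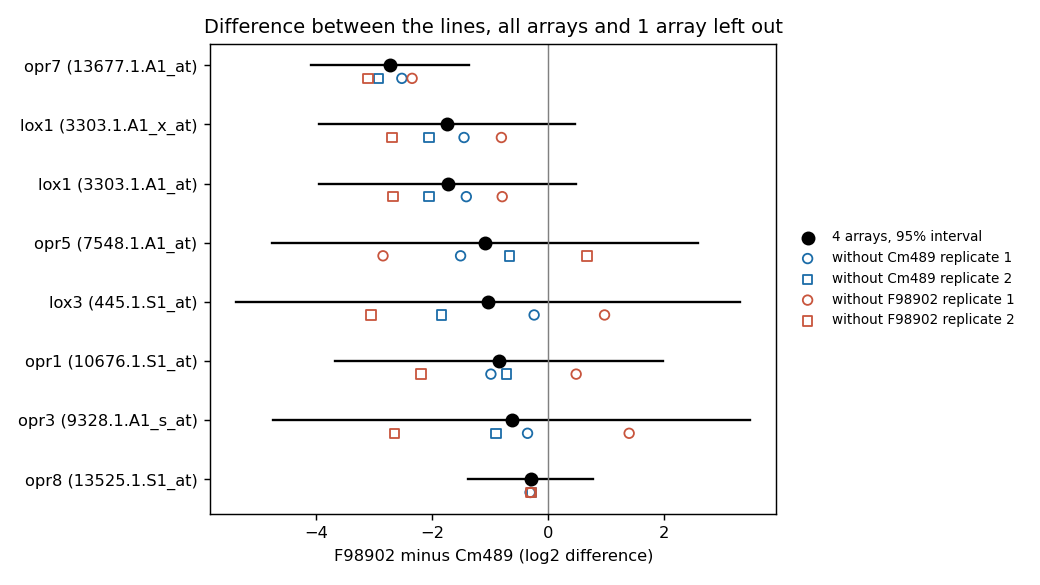
Difference F98902 minus Cm489 (log2, x axis) of the 8 tested probe sets (y axis). Black points with bars are the fit to 4 arrays with its 95% interval, and open symbols are the differences with 1 array left out. Only the bar of opr7 lies wholly under 0 (-4.09 to -1.36), and lox3, opr1, opr3 and opr5 cross to the right with 1 F98902 array left out.

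As families, the 3 lipoxygenase probe sets had a median difference of -1.73 and the 5 tested reductase probe sets one of -0.85, beside -0.02 over all tested probe sets. With 1 probe set per gene the lipoxygenase median was -1.38. The arrays of the lines were apart, lower in F98902, in 2 of 3 lipoxygenase probe sets, both of lox1, and 2 of 5 reductase probe sets. The share over all tested probe sets was 20.0%. No member was apart in the other direction (18.1% of all). Leaving out F98902 replicate 1 gave a lipoxygenase median of -0.79 and a reductase median of -0.30, and leaving out F98902 replicate 2 gave -2.69 and -2.19. No test was made between the families.

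The median range of the 8 tested members over the 4 arrays was 3.15, beside 1.46 over all tested probe sets, and 7 of 8 had a range of at least 2 (35.3% of all). Only opr8 did not. Set against its own mean over the 4 arrays, the median lipoxygenase value was 1.19 and 0.54 in Cm489 replicates 1 and 2, and -1.82 and 0.07 in F98902 replicates 1 and 2. For the reductases it was 0.29, 0.56, -1.74 and -0.15. F98902 replicate 1 was the lowest array for 3 of 3 lipoxygenase probe sets, 2 of them of lox1, and 3 of 5 reductase probe sets. Of all tested probe sets 30.3% were lowest there.

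F98902 replicate 2 exceeded replicate 1 by at least 1 in 3 of 3 lipoxygenase and 2 of 5 reductase probe sets, against 19.8% of all. These gaps were 1.88 and 1.89 for lox1, 4.02 for lox3, 2.67 for opr1 and at least 3.66 for opr3, whose value in F98902 replicate 1 lay under the minimum and was taken as 4. Between the Cm489 samples the largest gap was in lox3, where replicate 2 minus replicate 1 was -1.59. Of the 4 arrays, F98902 replicate 1 had the highest summed signal of the green markers (15.24), and F98902 replicate 2 a lower one (12.52). Cm489 replicate 2 was next highest (14.63). Its median centred value was 0.54 for the lipoxygenases and 0.56 for the reductases. In Cm489 replicate 1, with a summed green signal of 11.43, these values were 1.19 and 0.29. Within Cm489, replicate 2 minus replicate 1 had a median of -0.64 over the lipoxygenase and 0.03 over the tested reductase probe sets. In whole tissue, fewer cells of a type and less RNA per cell cannot be told apart, and the part of tissue makeup in the members' values was not tested.

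RNA integrity was read from control transcripts, as the signal at the 5′ end minus that at the 3′ end. This value was -0.83 in F98902 replicate 1 and between -1.65 and -1.02 on the others for cyclophilin, and -2.02 against -4.10 to -3.27 for GAPDH. For EF1-alpha it was -1.88 against -4.44 to -2.97, and for ubiquitin -1.60 against -1.60 to -1.36. The 5′ ends were thus relatively brightest in F98902 replicate 1 for 3 of these 4 controls. The actin control was left out because at least 1 of its 5′ and 3′ probe sets lay under the minimum on each of the 4 arrays. The part of RNA integrity in the members' values was not tested.

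The list of other oxylipin, jasmonate and wound genes found 12 genes with 13 probe sets, of which 9 genes with 10 probe sets were tested. None passed the test in either direction, beside 1.78% of all, and 9 of 10 had a lower mean in F98902, against 51.2% of all, with a median of -0.88 beside -0.02 over all tested probe sets. The count of 9 was 6 without F98902 replicate 1 (48.4% of all tested probe sets), where aos1, wip1 and 1 of the aoc1 probe sets turned. The genes mir1, stc1 and ts2 lay under the minimum on all arrays. They stand for an insect resistance protease, a sesquiterpene synthase of herbivore-induced volatiles and the tasselseed2 sex determination dehydrogenase.

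Upstream of the lipoxygenases, FAD8 and fad7 encode desaturases that make linolenic acid. FAD8 read 12.78 and 12.49 in Cm489 and 11.24 and 11.81 in F98902, with both F98902 arrays lower and a difference of -1.11 (SE 0.45, limma adjusted p = 0.547). The fad7 signal was 11.59 and 12.68 in Cm489 and 11.63 and 10.93 in F98902, which overlapped (difference -0.85, limma adjusted p = 0.808, and -0.31 without Cm489 replicate 2). PLD1, a phospholipase D gene, read 10.48 and 10.77 in Cm489 and 9.72 and 9.71 in F98902, apart but with an adjusted p of 0.605 (limma, difference -0.91).

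Downstream, aos1 encodes allene oxide synthase, which turns 13-hydroperoxides into the precursor of OPDA. It read 13.66 and 13.64 in Cm489 and 10.43 and 13.66 in F98902. Of the 4 arrays 3 lay within 0.02 of each other and F98902 replicate 1 stood 3.22 under the lowest of them. The difference of -1.61 (SE 1.202, limma adjusted p = 0.816) was 0.008 without F98902 replicate 1. The allene oxide cyclase gene aoc1 read 11.83, 11.58, 11.17 and 11.46 with Zm.6423.1.S1_at and 12.09, 12.97, 11.22 and 13.00 with Zm.6423.2.A1_at, in the order Cm489 replicates 1 and 2 and F98902 replicates 1 and 2. Both had their lowest value in F98902 replicate 1, with differences between the lines of -0.39 and -0.42 (limma adjusted p = 0.875 and 0.942).

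HPL, the hydroperoxide lyase gene of the green leaf volatile branch, read 7.21 and 9.38 in Cm489 and 7.52 and 6.12 in F98902 (difference -1.47, limma adjusted p = 0.793). Leaving out Cm489 replicate 1 gave -2.55, and leaving out replicate 2 gave -0.39. Its value in F98902 replicate 1, the lowest array of both lipoxygenases, lay between the Cm489 arrays. The gene myc7, for a MYC2-type regulator of jasmonate responses, read 11.09 and 11.27 in Cm489 and 11.11 and 10.11 in F98902 (difference -0.57, limma adjusted p = 0.854). With F98902 replicate 2 omitted the difference was -0.07, and with F98902 replicate 1 omitted -1.07. The gene igl1, for an indole-forming enzyme of herbivore-induced volatiles, was the 1 tested gene of the list with a higher mean in F98902. It read 10.01 and 9.16 in Cm489 and 9.52 and 10.07 in F98902 (difference 0.21, limma adjusted p = 0.961).

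The widest spread of the list was in wip1, a wound-induced gene for a proteinase inhibitor of the Bowman-Birk type. It read 14.42 and 12.62 in Cm489 and 7.38 and 14.73 in F98902. F98902 replicate 1 was the lowest and F98902 replicate 2 the highest array, 7.35 apart, a gap within F98902 reached by 0.222% of tested probe sets. The difference between the lines was -2.46 (SE 2.69, limma adjusted p = 0.880), and it turned to 1.21 without F98902 replicate 1. The order of the arrays was that of lox3.

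**Figure D3:**
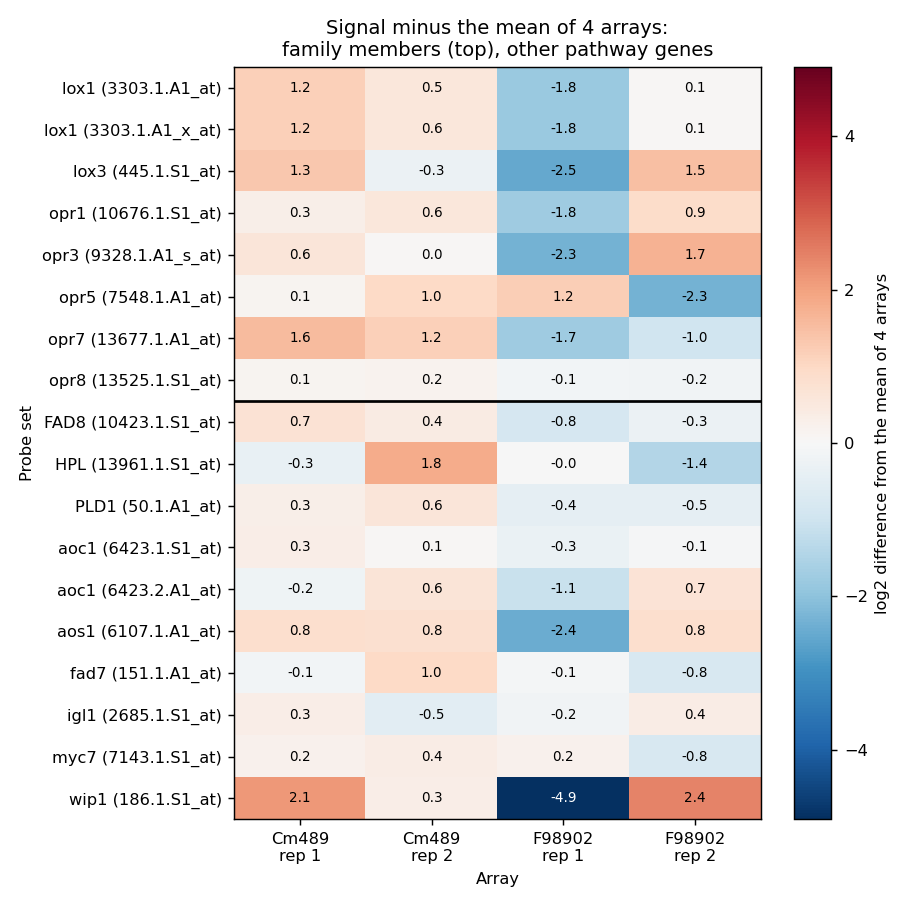
Signal of the 8 tested members (above the black line) and the 10 tested probe sets of other pathway genes (below it) on each array, as the log2 difference from the probe set's own mean over the 4 arrays. Red is above and blue under that mean; wip1, lox3, aos1 and opr3 are darkest blue in F98902 replicate 1, and opr5 and HPL in F98902 replicate 2.

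The named genes most like lox3 and opr3, the lipoxygenase and reductase with the widest range, were found by Euclidean distance between values centred over the 4 arrays, among 968 named probe sets. Nearest to lox3 were sum1, a SUMO gene (distance 0.56), orp2, for a tryptophan synthase subunit (0.63), and hmt1, for a homocysteine methyltransferase (0.71). Nearest to opr3 were hmt1 (0.26), mas1, for malate synthase (0.58), and a2, for an anthocyanidin synthase (0.72). The distance between lox3 and opr3 themselves was 0.85. All distances to opr3 use its value under the minimum in F98902 replicate 1 as it stands. With 4 points a short distance is found easily, so these are descriptions of the arrays.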

How the data were processed

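The authors made the deposited values, taken as log2 from their range (1.18 to 15.28), with GCRMA, per the submitters' processing notes, which state no version. Each array has 1 value for each probe set, with no detection calls. Names came from GEO's platform annotation, updated by Entrez number to RefSeq (assembly Zm-B73-REFERENCE-NAM-5.0). Of 17621 probe sets 1452 had 1 gene (1377 matched in RefSeq), 1 had several and 16168 were unnamed here. The files name no build, so no coordinates are given. The 113 control probe sets were left out.

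Probe sets at log2 4 or above on at least 2 arrays were tested with limma 3.58.1 (lmFit, eBayes) under R 4.3.3. The two-sided test was of F98902 minus Cm489, with Benjamini-Hochberg adjustment over 11242 and a threshold of 0.05. SE is moderated. On simulated arrays of this comparison with 11242 probe sets, 43% of differences of 8 were recovered, 0.1% of 4 and 0% of 2. The simulation changed only a few of the probe sets, and the adjustment depends on how many differ. These rates need not hold for the real arrays, and members that did not pass are not shown to be equal.

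Members and lists were chosen with earlier results of these data known. The list of other pathway genes was matched by symbol or synonym; its search of gene descriptions was not used, since the annotation holds none. Every tested member and list gene is named, with the 3 named genes nearest the widest-ranging lipoxygenase and reductase. Alternatives were other filters, prior, scalings, a raised floor, a stricter threshold, a replicate block, a crossed pairing, left-out arrays, 1 probe set per gene and symbols alone.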

Additional observations from a re-analysis of the deposited data

How the results depend on the processing

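The count of member probe sets past the threshold was 0 in the main setting (limma; 1 at an unadjusted p under 0.05) and 0 under every alternative run, as was that of the other pathway genes. At an unadjusted p under 0.05 the members numbered 6 without F98902 replicate 2, 3 with the crossed pairing, 2 without F98902 replicate 1, 2 with no dim filter and 1 under the other alternatives refitted. For all probe sets it was 200 (105 higher, 95 lower in F98902), and 79 with no dim filter, 8 with a robust prior, 115 with values under 4 raised to 4, 0 at an adjusted p under 0.01 and 0 with the replicate block; leaving out each array gave 0 to 0. The lone array left is then assumed to vary like the other line. The labels do not say that replicate numbers pair samples, and differences between the arrays of the lines correlated at -0.558 over 11242 probe sets. The crossed pairing gave 284 calls and 0 among members. The replicate block left the median of the lipoxygenases at -1.73 and that of the reductases at -0.85. Over left-out arrays these medians ran from -2.69 to -0.79 and from -2.19 to -0.30. The count of 8 tested members with a lower mean in F98902 was set up after the values were seen. It ran from 5 to 8 over left-out arrays and was 8 under the other alternatives. That of the 9 lower probe sets of other pathway genes ran from 6 to 10 over left-out arrays and was otherwise 9. The share of all tested probe sets that were lower in F98902 ran from 48.2% to 55.3% over left-out arrays.

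Of 96 values of the 8 tested members 92 kept side and direction and 4 turned, and of 120 values of the other pathway genes 114 and 6. As none had passed with all 4 arrays, a kept side says no more than that none passed. Turned differences ran over left-out arrays from -3.05 to 0.97 in lox3, -2.19 to 0.48 in opr1, -2.65 to 1.40 in opr3, -2.85 to 0.67 in opr5, -1.31 to 0.47 in aoc1 (Zm.6423.2.A1_at), -3.22 to 0.0084 in aos1, -0.21 to 0.63 in igl1 and -6.14 to 1.21 in wip1. Without turning, lox1 ran from -2.69 to -0.79, HPL from -2.55 to -0.39, fad7 from -1.39 to -0.31, myc7 from -1.07 to -0.07 and aoc1 (Zm.6423.1.S1_at) from -0.53 to -0.25. The cause was not tested.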
